A study of Mus musculus with 4 samples.

Results

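The 9 genes described here, Lck, Zap70, Lat, Lcp2, Ptprc, Cd4, Cd28, Cd5 and Icos, encode proteins of the first steps of T cell receptor signalling and of costimulation. They were chosen by name, by a rule that sets no limit on their counts, and are 9 of the 50600 genes in the tables. RNA was measured in primary T-helper 2 cells from C57BL/6NJ mice, a subset of CD4 T cells that makes interleukin-4. There was 1 group with 4 libraries, biological replicates 1 to 4, and no other cell type, no other treatment and no control. The labels linked a protocol for differentiating CD4 T cells, the file headers named a time of 24 hours, and age and sex were not given. All 4 libraries carried the same donor record, and no label stated whether the replicates came from separate mice or cultures. The p-values rest on the spread over these 4 samples alone, and that spread may be technical.

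When a T cell receptor meets its antigen, the kinase Lck, held at the coreceptor Cd4, phosphorylates the CD3 chains, and the kinase Zap70 docks there. Zap70 then phosphorylates the membrane adaptor Lat and the cytosolic adaptor SLP-76, the product of Lcp2, on which the enzymes of the calcium and Ras pathways assemble. Ptprc encodes CD45, the phosphatase that keeps Lck ready to act, Cd28 and Icos encode costimulatory receptors, and Cd5 encodes a surface receptor that restrains the signal.

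The libraries held between 1804217 and 2711948 counts. Genes with no exon base in common with an opposite-strand gene, which include 8 of the 9 genes, were 42411 of the 50600 genes but held only 7.12%, 7.82%, 5.55% and 4.13% of the counts of replicates 1 to 4. Strand setting 1 of the counting is given in the file headers, but the orientation of the library kit is not given in the sources used here. Had the kit the opposite orientation, each count and TPM below would come from RNA of the other strand or from leftover reads, and which holds was not tested. Counts are therefore given for the strand chosen in the counting, without taking them for the gene's expression. The ribosomal RNA gene CT010467.1 alone held 1.02%, 1.14%, 28.6% and 14.4% of the counts, and its higher share in replicates 3 and 4 lowers values there that are scaled to the library total. In bulk RNA, fewer cells of a type and less RNA per cell cannot be told apart.

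The promoters of these genes are shown first, since all of these genes are known T cell genes. RefSeq promoter windows (GRCm38.p6, the mm10 build) matched 6 of the 9 genes, with 10 windows in all. Of the windows, the 250 bases before the start site were searched on both strands for 9 short motifs, chosen after the counts were known. For 5 genes, a window that lies before the first exon in the tables is printed below, less any bases inside an exon (2 for Lat and 8 for Lcp2). All are printed 5′ to 3′ on the strand of the gene, and capitals mark AGGAAG or its reverse complement CTTCCT, the core bound by ETS factors.
Lck, chr4:129573642-129573891, minus strand: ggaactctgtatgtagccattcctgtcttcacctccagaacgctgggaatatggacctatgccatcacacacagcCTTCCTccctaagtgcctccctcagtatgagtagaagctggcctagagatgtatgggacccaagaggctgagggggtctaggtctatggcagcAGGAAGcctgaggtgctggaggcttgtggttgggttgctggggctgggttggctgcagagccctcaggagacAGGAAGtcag
Zap70, chr1:36761548-36761797, plus strand: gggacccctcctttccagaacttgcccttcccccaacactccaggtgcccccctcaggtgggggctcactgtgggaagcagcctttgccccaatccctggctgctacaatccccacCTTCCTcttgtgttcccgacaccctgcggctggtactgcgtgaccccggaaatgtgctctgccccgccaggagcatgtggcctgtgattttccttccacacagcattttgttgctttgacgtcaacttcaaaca
Lat, chr7:126369571-126369818, minus strand: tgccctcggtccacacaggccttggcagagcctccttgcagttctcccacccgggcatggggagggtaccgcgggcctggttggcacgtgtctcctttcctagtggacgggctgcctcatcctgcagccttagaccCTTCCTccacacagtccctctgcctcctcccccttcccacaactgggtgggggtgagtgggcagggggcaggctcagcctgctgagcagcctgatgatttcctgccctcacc
Lcp2, chr11:34046678-34046919, plus strand: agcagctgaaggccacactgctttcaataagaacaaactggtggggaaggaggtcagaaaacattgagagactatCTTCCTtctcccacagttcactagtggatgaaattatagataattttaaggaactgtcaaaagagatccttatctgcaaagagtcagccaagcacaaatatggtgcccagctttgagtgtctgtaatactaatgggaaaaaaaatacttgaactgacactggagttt
Cd5, chr19:10738975-10739224, minus strand: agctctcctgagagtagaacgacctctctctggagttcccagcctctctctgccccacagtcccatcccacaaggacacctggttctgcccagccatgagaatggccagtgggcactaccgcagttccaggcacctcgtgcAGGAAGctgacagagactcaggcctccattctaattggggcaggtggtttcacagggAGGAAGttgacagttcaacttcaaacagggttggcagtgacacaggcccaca

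AGGAAG was found in 9 of the 10 windows, at least once in each of the 6 genes with a window, against 29.5% of all 32851 windows of this length. The printed window of Lck, its distal promoter, held it 3 times and that of Cd5 held it 2 times. CAGGTG, an E-box of the E proteins, was found in 4 of the 10 windows against 17.2% of all, GATAAG in 2 against 6.55%, and TGTGGT, a RUNX core, in 2 against 14.0%. GGGCGG, the GC box, was found in 1 window against 32.7%, CACGTG in 1 against 6.02% and TATAAA in 1 against 12.4%. CGGAAG (13.6% of all windows) and TGACTCA (4.46%) were found in none of the 10. Several windows belong to the same gene, and those of Ptprc overlap each other, so these are counts of letters and not of independent promoters.

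Cd4 and Ptprc, the coreceptor and the phosphatase, both had at least 56 counts in each of replicates 1 to 3 and at most 25 in replicate 4. Cd4 (ENSMUSG00000023274.14, mm10 chr6:124864692-124888221, minus strand, 11 exons) had 56, 67, 71 and 20 counts in replicates 1 to 4. Divided by exon length and scaled to 1 common total, this was 9.60 ± 4.32 TPM (SD, n = 4). Replicates 1 to 3 lay between 10.6 and 13.2 TPM, and replicate 4 was at 3.34 TPM. Ptprc (ENSMUSG00000026395.16, chr1:138062861-138175708, minus strand, 32 exons) had 175, 273, 208 and 25 counts, the highest counts of the 9 genes in every library. Its exons are the longest, 18313 bases, and its level was 6.84 ± 4.50 TPM (SD, n = 4), with 0.918 TPM in replicate 4. Cd8a, the coreceptor of the other main T cell lineage, had no count in any library. Against 3 counts over the 4 libraries, the most that counts of 0 allow, Cd4 was at least 64.4-fold higher per exon base, before the counting error of Cd4 itself.

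Of the kinases, Lck had more counts than Zap70 in replicates 1 to 3. Lck (ENSMUSG00000000409.14, chr4:129548344-129573641, minus strand, 13 exons) had 33, 43, 33 and 10 counts, or 7.47 ± 3.98 TPM (SD, n = 4). Zap70 (ENSMUSG00000026117.10, chr1:36761798-36782818, plus strand, 14 exons) had 21, 17, 22 and 13 counts, or 4.39 ± 1.14 TPM. Per exon base over the pooled counts, Lck was 1.67-fold higher (exact 95% interval for counting error 1.23 to 2.26), but this did not hold in every library: Lck was the lower of the pair in replicate 4 per exon length. The difference in log2(TPM + 0.1), Lck minus Zap70, was 0.57 ± 0.69 (SD, n = 4), higher in 3 of 4 libraries, with an exact two-sided sign-flip permutation p of 0.25. It was 0.31 without replicate 2 and 0.88 without replicate 4. Zap70 had the smallest spread of the 9 genes, with a coefficient of variation of 25.9% against 80.97% for Cd28, the largest.

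Of the adaptors, Lcp2 had more counts than Lat in every library. Lcp2 (ENSMUSG00000002699.13, chr11:34046920-34092295, plus strand, 21 exons) had 66, 93, 93 and 21 counts, or 11.1 ± 5.64 TPM (SD, n = 4), the highest mean level of the 9 genes. Lat (ENSMUSG00000030742.7, chr7:126363824-126369570, minus strand, 5 exons) had 8, 11, 18 and 3 counts, or 2.54 ± 1.37 TPM. On the log2(TPM + 0.1) scale Lat minus Lcp2 was -2.07 ± 0.33 (SD, n = 4), with Lat lower in 4 of 4 libraries. The exact two-sided sign-flip permutation p was 0.13, the smallest that 4 libraries allow, and 0.167 after Benjamini-Hochberg adjustment over the 4 pairs compared. The exons of Lat also hold 75 bases of a microRNA gene on the same strand, and those of Lck 25 bases of another, so fragments there may not have been assigned.

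Lcp2 was the only 1 of the 9 genes that shared exon bases with the other strand. Its last exon shares 88 bases, at chr11:34091560-34091647, with 4930469K13Rik (ENSMUSG00000085684.1, chr11:33973961-34098554, minus strand), a gene annotated as protein coding in GENCODE M21 of the same build. The shared bases lie in the 3′ untranslated region of Lcp2, 648 bases before its annotated end, and span a whole exon of 4930469K13Rik. The feature had 203, 188, 183 and 175 counts in replicates 1 to 4, more than Lcp2 in each library. The ratio of its counts to those of Lcp2 was 3.08, 2.02, 1.97 and 8.33. The tables do not show where in the 698 exon bases of the feature its counts lie. Between replicate 4 and the mean of the others, log2 CPM, the count scaled to the library total with a prior count of 0.5, differed by -0.19 for the feature and by -2.02 for Lcp2.

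**Figure D1:**
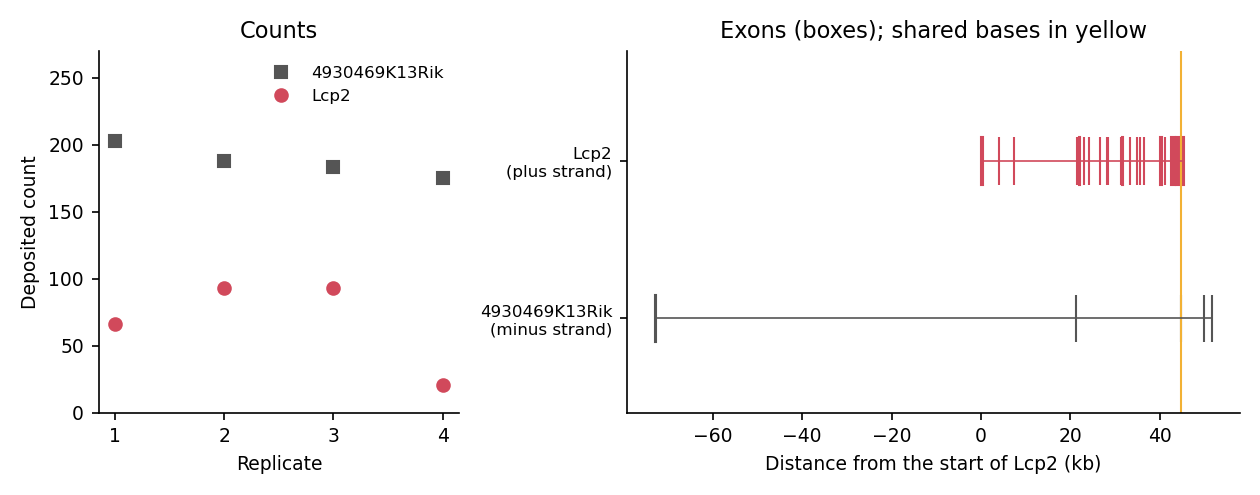
Left, deposited counts of Lcp2 (circles) and 4930469K13Rik (squares) in each of the 4 replicates; right, exons of both genes as boxes by distance from the start of Lcp2 in kilobases, with the 88 shared bases in yellow. The feature stays between 175 and 203 counts while Lcp2 is at 21 counts in replicate 4 and between 66 and 93 in the others.

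The costimulatory receptors were the lowest of the 9 genes together with Lat. Cd28 (ENSMUSG00000026012.2, chr1:60716800-60773359, plus strand, 7 exons) had 19, 45, 32 and 1 counts, or 2.90 ± 2.35 TPM (SD, n = 4), and 1.93 TPM without replicate 2. Icos (ENSMUSG00000026009.14, chr1:60977927-61000320, plus strand, 5 exons) had 6, 8, 10 and 0 counts, or 1.26 ± 0.858 TPM. Cd28 was higher than Icos in replicates 1 to 3, by 0.79, 1.60 and 0.81 in log2(TPM + 0.1). In replicate 4 both were under 3 counts, so the order there is set by the pseudocount and the planned test over 4 libraries shows nothing more. Without replicate 4 the mean difference was 1.07, with an exact two-sided sign-flip permutation p of 0.25, the smallest that 3 libraries allow. With a pseudocount of 1 TPM the mean over 4 libraries was 0.64. Per exon base over the pooled counts Cd28 was 2.26-fold higher (exact 95% interval for counting error 1.44 to 3.70). Both genes lie on chromosome 1 on the same strand, with the inhibitory receptor gene Ctla4 between them, 113640 bases after the end of Cd28 and 62094 bases before the start of Icos. Ctla4 had 9, 15, 12 and 2 counts, so all 3 genes of this row had their lowest count in replicate 4. Cd5 (ENSMUSG00000024669.7, chr19:10718143-10738974, minus strand, 11 exons) had 29, 28, 18 and 13 counts, or 7.89 ± 3.68 TPM. Its replicates 3 and 4 were near each other, at 5.24 and 4.23 TPM, and below replicates 1 and 2, at 11.4 and 10.7 TPM.

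**Figure D2:**
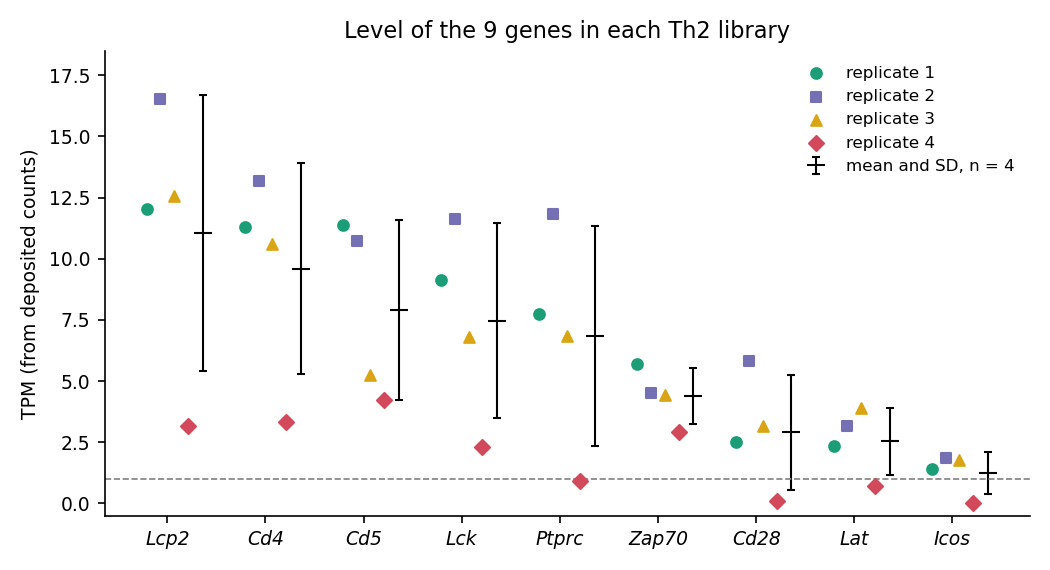
TPM of each gene in each of the 4 libraries (symbols) with the mean and SD over the 4 (black bars); the dashed line is 1 TPM. Replicate 4 is the lowest library for each of the 9 genes, and only Cd5 and Zap70 come near their other values there.

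In order of mean level the genes were Lcp2, Cd4, Cd5, Lck, Ptprc, Zap70, Cd28, Lat and Icos. Most neighbours in this order did not differ beyond their spread: Lcp2 minus Cd4 was 0.15 ± 0.18 in log2(TPM + 0.1) (SD, n = 4) and Cd5 minus Lck 0.17 ± 0.53. Of the 8 neighbouring pairs only Lat and Icos kept their order in 4 of 4 libraries, with a difference of 1.4 ± 1.1, and in replicate 4 that order rests on 3 counts against 0. Icos was the lowest of the 9 in replicates 1 to 3, Lcp2 was the highest in replicates 1 to 3 and Cd5 the highest in replicate 4.

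Against a level of 1 TPM, 6 of the 9 genes were higher, namely Lck, Zap70, Lcp2, Ptprc, Cd4 and Cd5, and none was lower (limma, Benjamini-Hochberg adjusted p under 0.05 over 17203 genes). Of all genes tested, 32.1% were called above this level and 26.6% below it, and the median log2(TPM + 0.1) was 2.34 over the 9 genes and -0.21 over all genes tested. The adjusted p was 7.5e-05 for Cd5, 8.5e-05 for Cd4, 0.00016 for Lcp2, 0.00038 for Zap70, 0.00045 for Lck and 0.011 for Ptprc. Lat (adjusted p = 0.074), Cd28 (0.43) and Icos (0.71) were not called in either direction. Replicate 4 decided part of this: without it Lat and Cd28 were also called above, which made 8 of 9, while without replicate 1 or without replicate 3 Ptprc missed the threshold (adjusted p = 0.051 and 0.054), which left 5. The depth sets a limit here, since 1 TPM of Ptprc was worth 22.6 to 30.4 counts in a library, but 1 TPM of Icos only 4.23 to 5.69 counts and of Cd5 only 2.55 to 3.43.

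The 9 genes had few counts in replicate 4. Their counts summed to 413, 585, 505 and 106 in replicates 1 to 4, or 229, 317, 186 and 48.9 CPM. Of the 7 genes that had 10 counts or more in each of replicates 1 to 3, 5 were more than 1 lower in log2 CPM in replicate 4 than the mean of the others: Lck, Lcp2, Ptprc, Cd4 and Cd28. The same held for 28.0% of the 5463 genes with that many counts, and for 55.9% of the 2115 of them that share no exon base with the other strand. The median difference was -1.86 over the 7 genes, -0.20 over the 5463 genes and -1.24 over the 2115. The minimum was set on replicates 1 to 3 alone, which lets in genes that are low only in replicate 4. With a mean of at least 10 counts over all 4 replicates, 6 of 8 members were more than 1 lower. So were 27.5% of 6081 genes, and 52.2% of the 2465 of them without shared exon bases. With library totals taken without CT010467.1, the median of the 7 genes was -1.81. No gene of the 6 that could be compared in replicates 1, 2 or 3 was more than 1 lower there, where 1.21%, 0.917% and 5.48% of all genes were. The means in those comparisons include the low replicate 4, and 10 counts were required there too, so these values of 0 carry little weight. Without replicate 4, 0 of 8, 0 of 7 and 1 of 7 members were more than 1 lower in replicates 1, 2 and 3. Of all genes compared in this way, 2.50%, 0.983% and 11.0% were. How many of the 2115 genes were more than 1 lower in replicate 4 depended on the scaling: 47.6% with DESeq2's size factors and 37.8% with totals of the genes without shared exon bases, with 5 of the 7 members lower under both.

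The difference of replicate 4 was unequal among the 9 genes. As a ratio of CPM, replicate 4 over the other 3 replicates pooled, Zap70 was at 0.635 (exact 95% interval for counting error 0.320 to 1.17) and Cd5 at 0.508 (0.259 to 0.923). Cd4 was at 0.302 (0.181 to 0.480), Lck at 0.269 (0.126 to 0.514), Lcp2 at 0.244 (0.149 to 0.382) and Lat at 0.238 (0.0469 to 0.751). Ptprc was at 0.112 (0.0718 to 0.166), an interval that lies below those of Zap70, Cd5 and Cd4. Cd28 had 1 count in replicate 4 against 96 in the others, a ratio of 0.0305 (0.000765 to 0.174). Icos had none against 24, and the exact 95% interval of its ratio reached up to 0.487. With replicate 4 put at 3 counts, the most that a count of 0 allows, Icos was at least 2.73-fold lower, before the counting error of the other libraries. When each library was scaled to its genes without shared exon bases, Zap70 was at 1.02 (0.515 to 1.88) and Cd5 at 0.818 (0.416 to 1.49), while Ptprc stayed at 0.180 (0.116 to 0.268). The choice of this scaling was made after the counts had been seen.

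**Figure D3:**
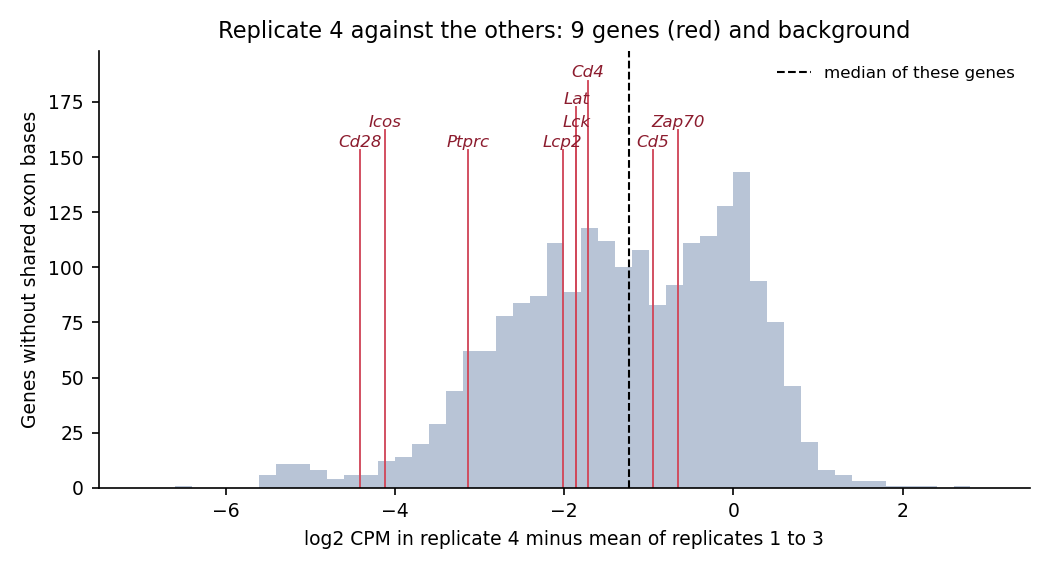
Histogram of the difference in log2 CPM, replicate 4 minus the mean of replicates 1 to 3, for 2115 genes that share no exon base and had 10 counts or more in each of replicates 1 to 3; the dashed line is their median, -1.24. Red lines mark the 9 genes, including Lat and Icos, which had fewer counts, and Lcp2, which shares exon bases; only Zap70 at -0.65 and Cd5 at -0.95 lie above the median.

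The base composition of the transcripts moved with the size of this difference. In the longest GENCODE M21 transcript of each gene, GC content was lowest for Ptprc (39.4%), Cd28 (41.2%) and Icos (43.0%), the 3 genes with the largest differences in replicate 4 at -3.14, -4.41 and -4.12. Cd28 and Icos had 1 and 0 counts there, so their values depend on the prior count of 0.5. With a prior count of 2, the lowest of the 7 genes with 10 counts or more in replicates 1 to 3 was at -3.49. GC content was 46.8% for Lcp2, 52.0% for Cd4, 54.3% for Lck, 56.8% for Cd5, 57.5% for Lat and 59.6% for Zap70. Zap70 and Cd5, with the smallest differences, are among the 3 genes of highest GC content, and Lat, at -1.86 on 3 counts, is the other. The transcript of Cd5 has 2989 bases, more than the 2069 exon bases over which Cd5 was counted. Its GC content therefore includes bases that were not counted. The same order was present in the 2114 genes without shared exon bases for which a transcript was found. In 5 groups of these genes, from lowest to highest GC content, the median difference in replicate 4 was -1.79, -1.59, -1.29, -1.14 and -0.50. The share more than 1 lower went from 66.7% to 38.5%. In replicates 1 to 3, each set against the other 2 of them, the medians of the 5 groups differed much less, from 0.10 to 0.19 in replicate 1, from 0.28 to 0.41 in replicate 2 and from -0.54 to -0.44 in replicate 3. The share more than 1 lower in replicate 3 nevertheless went from 13.2% in the group of lowest GC content to 6.15% in the highest. All of these genes had at least 10 counts in each of replicates 1 to 3, while no minimum was set in replicate 4. That minimum limits how low a gene can be in replicates 1 to 3, so the contrast with replicate 4 is partly set by it. Exon length moved with the difference as well: its median was -0.64 in the shortest of 5 groups by exon length and -1.53 in the longest. These are descriptions across genes, which are not independent of each other, the property was chosen after the values were seen, and the part that GC content or length plays was not tested.

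**Figure D4:**
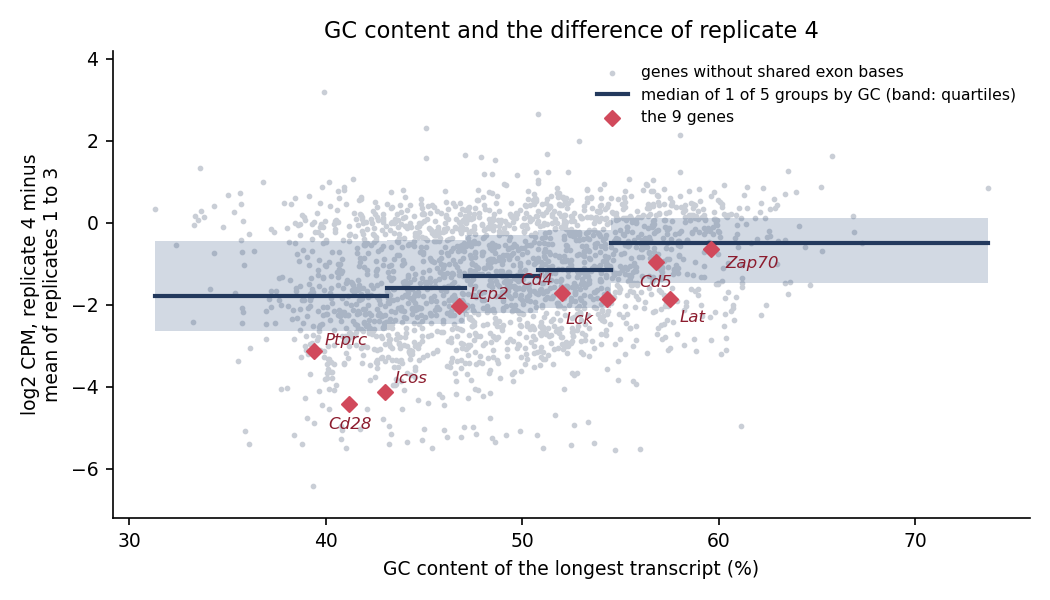
Difference in log2 CPM, replicate 4 minus the mean of replicates 1 to 3, against GC content of the longest transcript in percent; grey points are 2114 genes without shared exon bases, dark lines the medians and bands the quartiles of 5 groups by GC content, red diamonds the 9 genes. Medians go from -1.79 in the group of lowest GC content to -0.50 in the highest, and Ptprc, Cd28 and Icos lie at the low end of both axes. Cd28 and Icos had 1 and 0 counts in replicate 4.

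None of the 5 members that could be tested was called as varying between the replicates. The edgeR quasi-likelihood fit called 0% of the 4190 genes its filter kept, with 268 genes at an unadjusted p under 0.05 and a smallest adjusted p of 0.153. Ptprc had the smallest p of the 5 members tested, 0.004 before and 0.53 after adjustment. Lck, Lat, Cd28 and Icos did not pass the filter, which asks for a minimum CPM in each of the 4 libraries. A gene can thus be removed for being low in replicate 4. Lck, at 18.3, 23.3, 12.2 and 4.61 CPM, was removed, while Zap70, at 11.6, 9.21, 8.11 and 5.99 CPM, was kept. The filtered test therefore says nothing on the spread of the members it removed. Without the filter, the fit called 345 of 17203 genes, and among them Ptprc (adjusted p = 6.2e-11) and Cd28 (adjusted p = 0.018).

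Over the 4 libraries, the genes whose profile was nearest to the mean profile of the 8 members with a mean of at least 10 counts were Rpl35a, Uqcrh, Rps15, Eef2 and Epb41, among 6073 genes compared. Likeness was the root mean square distance between log2 CPM centred on each gene, from 0.038 for Rpl35a to 0.046 for Epb41. Rpl35a and Rps15 encode ribosomal proteins, Uqcrh a subunit of respiratory complex III and Eef2 an elongation factor. Eef2, for example, had 295, 414, 388 and 87 counts. Among the members, Lcp2 was nearest to the mean profile, at 0.075, and Cd28 farthest, at 1.06.

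Around these members, 77 other genes of the pathway were counted in 7 lists. Of them 31 were called above 1 TPM, 5 below and 37 in neither direction, and 4 had no count (limma, adjusted p under 0.05), where 32.1% of all genes tested were above and 26.6% below. Of the 29 that share no exon base with the other strand and had at least 10 counts in each of replicates 1 to 3, 22 were lower by over 1 in log2 CPM in replicate 4, and the median of the 29 was -1.77, beside 55.9% and -1.24 for the 2115 such genes in all. The lists were drawn up with earlier results of these data known and give no independent support.

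Of the 7 receptor and CD3 chains, 6 were above 1 TPM. The receptor alpha chain gene Trac had 19, 30, 27 and 2 counts and Trbc2, of the beta chain, 15, 22, 7 and 6. Of 6 further kinases of the Src, Tec and Syk families, 2 were above 1 TPM and 2 below. Fyn, which acts beside Lck, had 23, 25, 29 and 8 counts, and Csk, the kinase that holds Lck inactive, had 30, 53, 37 and 4. Of 15 adaptors, 4 were above and 1 below, and the receptor-associated Trat1 and Sit1 had 5, 6, 7 and 2 counts and 11, 19, 19 and 13 counts.

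Of the 13 effectors of the Lat and Lcp2 complex, 3 were above 1 TPM and none below. Prkcq, the protein kinase C that acts at the synapse, had 154, 158, 185 and 123 counts. Malt1, the protease that leads to NF-kB, had 34, 41, 27 and 6, and Was, which drives actin assembly, 15, 19, 31 and 10. Of 13 phosphatases and ligases that restrain the signal, 6 were above and 1 below, with Ptpn6 at 54, 72, 79 and 16 counts and Dusp2 at 16, 24, 12 and 20. Of 14 further costimulatory receptors 7 were above and none below. Cd6, a relative of Cd5, had 112, 76, 96 and 87 counts, Cd27 had 34, 29, 32 and 58, and Cd40lg had 18, 32, 24 and 7. In this list 10 genes had 10 counts or more in each of replicates 1 to 3. Of these, 6 were more than 1 lower in log2 CPM in replicate 4, beside 28.0% of all genes with that many counts. Of 9 inhibitory receptors 3 were above and 1 below, and Btla had 66, 81, 82 and 39 counts. Prkcq, Cd6, Cd27 and Dusp2 thus kept their counts in replicate 4 where most of the 9 members did not, and none of the 4 shares exon bases with the other strand.

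Other genes of the pathway also face an opposite feature. In the 7 lists, 11 of the genes reported shared at least 50 exon bases with an opposite-strand gene, in 12 pairs, and in 9 pairs the feature had more counts than the pathway gene in every library. Plcg1 is counted with both Gm27206 and Zhx3. The share over all opposite-strand pairs of the series was not counted, so this is not shown to be particular to the pathway. Ptpn6, the phosphatase SHP-1, faced Gm20531 with 3453, 3782, 4183 and 4202 counts. Fyb, an adaptor that binds SLP-76, had 18, 29, 31 and 6 counts, and Gm2245 had 808, 724, 869 and 769. In 3 pairs the pathway gene had more counts than the feature in every library, among them Sla2 with 3656, 3346, 3730 and 3023 counts, against 123, 133, 193 and 123 for Rab5if, and Cd247, the zeta chain, with 1204, 1148, 1310 and 1073. Across the 12 pairs, the side with more counts differed in replicate 4 by -0.73 to 0.15 in log2 CPM, and the side with fewer counts by -3.78 to 0.34, with 5 of the 12 more than 1 lower. No count minimum was set for these pairs. Among the 5 are Themis, with 5, 11, 4 and 0 counts, and Skap1, with 1, 5, 10 and 1. Of all 3150 genes with at least 50 shared exon bases and 10 counts or more in each of replicates 1 to 3, 9.52% were more than 1 lower.

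**Figure D5:**
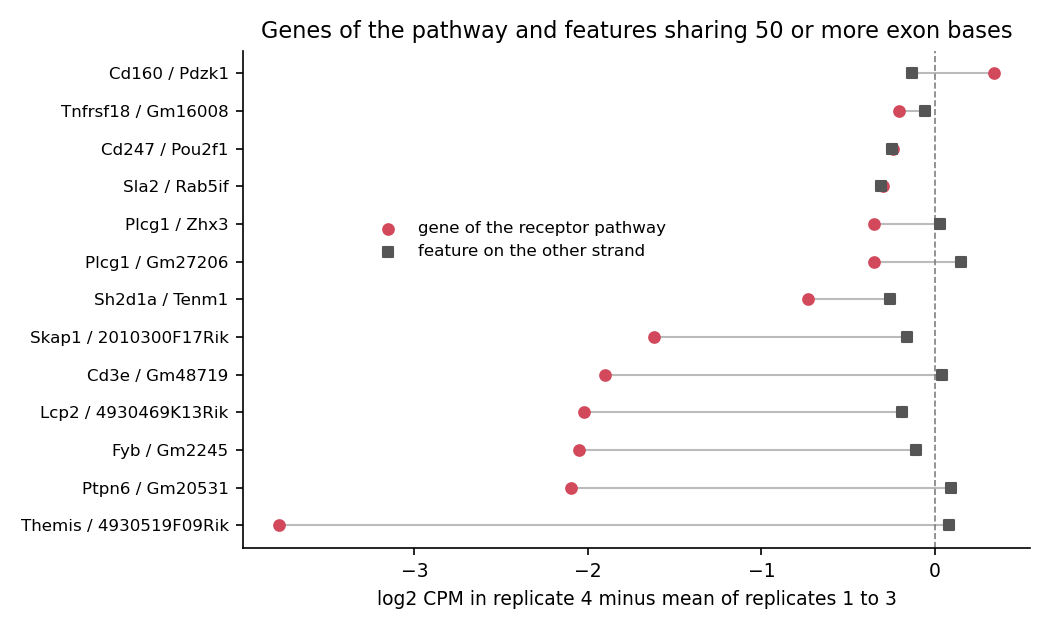
Difference in log2 CPM, replicate 4 minus the mean of replicates 1 to 3, for Lcp2 and the pathway genes (circles) and for each gene on the other strand that shares at least 50 exon bases (squares), joined by pair. The squares lie between -0.31 and 0.15, and circles reach -3.78 for the adaptor gene Themis, which had 5, 11, 4 and 0 counts.

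Markers of the labelled cell type had counts in part. Of the 8 Th2 markers 4 were called above 1 TPM and 2 below, where 32.1% of all genes tested were above and 26.6% below. Gata3, the Th2 master factor, had 20, 47, 44 and 22 counts, with 155 of its exon bases also covered from the other strand, and Il4, with none, had 24, 21, 25 and 26. The chemokine receptor Ccr4 had 32, 62, 38 and 7 counts, and Ptgdr2, a prostaglandin receptor whose gene shares 1031 exon bases with the other strand, had 196, 223, 212 and 170. Ccr8 had 7, 6, 4 and 0 counts, while Il5, Il13 and Il1rl1 had at most 1 count in any library. Tbx21, the Th1 factor, had no count in any library.

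Markers of other cells were at 0 in part. The 4 NK cell markers had no count. Of 5 B cell markers only Cd79a, a chain of the B cell receptor, had counts, 9, 15, 12 and 12, and it was called above 1 TPM, at 5.92 ± 1.52 TPM (SD, n = 4; limma adjusted p = 5.2e-05), with no exon base shared with the other strand. Of 6 macrophage and dendritic cell markers only Csf1r, a growth factor receptor, had counts, 1026, 993, 1006 and 983, which is above every member, and it shares 871 exon bases with the other strand. The part that other cells play in the values of the members was not tested. CD8 T cell markers summed to 4, 4, 8 and 4 counts. Of the ligands on antigen presenting cells, 2 of 11 were above 1 TPM and 1 below, with Tnfsf9 at 15, 13, 11 and 14 counts and Cd48 at 5, 10, 11 and 1, and Icosl, the ligand of Icos, at 0 in all 4 libraries.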

How the data were processed

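The authors counted fragments per gene with featureCounts 1.4.6-p4 over exons of GENCODE M13, with strand setting 1, per the file headers, on the mm10 assembly, per the labels. The deposited values are raw counts, not normalized. The assay is called total RNA-seq in the labels, which link a poly(A) library protocol. The aligner's version is not given in the sources used here. Library totals were 1804217 to 2711948 counts, and a count of 0 allows up to 3 counts, or 1.11 to 1.66 CPM.

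Symbols were matched for 50376 of 50600 gene IDs. TPM was computed from counts and exon lengths over all genes. Levels were tested against 1 TPM on log2(TPM + 0.1) with limma 3.58.1 for 17203 genes with a count, two-sided. How far replicates spread was tested with edgeR 4.0.16 (intercept-only quasi-likelihood fit, TMM factors, default filter). P-values of both were adjusted by Benjamini-Hochberg, with a threshold of 0.05, and both were tested on simulated data. The simulated libraries held no replicate that differs over many genes as replicate 4 does. They therefore do not show how either test behaves with such a replicate. Pairs of members were compared by exact sign-flip permutation over the 4 libraries. Replicate differences used log2 CPM with a prior count of 0.5. Intervals of ratios are exact conditional binomial ones and cover counting error only. Shared exon bases came from the coordinates in the tables, with a minimum of 50. Promoters are RefSeq's for GRCm38.p6, and GC content is that of GENCODE M21 transcripts. R 4.3.3 and Python 3.11.15 were used.

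The members and lists were chosen with earlier results of these data known. The genes named are the 9 members, features opposite them, up to 3 genes of each list by mean TPM, Gata3, Il4 and Tbx21, and the 5 genes of nearest profile. Others, namely Fyb, Themis and the other pathway genes drawn with an opposite gene, those opposite genes, Ccr8, Il5, Il13, Il1rl1, Icosl, Vsir, Slamf6, Cd69 and Tnfrsf4, were named after their values were seen. A gene of the lists is not reported here by name or in the pairs of opposite genes. The alternatives changed the pseudocount, level, filter, scaling, overlap and tool (DESeq2 1.42.0) and left out each replicate. Totals of genes without shared bases, totals without the top gene, another count minimum and leaving out single replicates for replicate differences were added after seeing the data.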

Additional observations from a re-analysis of the deposited data

How the results depend on the processing

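The 4 differences between members kept their direction under the 24 alternatives run, and no mean level moved by more than 1 SD in 54, although these SDs are wide and Cd28 went from 2.90 to 1.93 TPM without replicate 2. Cd4 minus Cd8a was 3.27 in place of 6.43 with a pseudocount of 1 TPM, since Cd8a is at 0, and Cd28 minus Icos was 2.06 when not scaled by exon length. No paired analysis was possible because there is only 1 group. Replicate 4 had 5 to 6 members lower under each scaling, count minimum and left-out replicate tried, and scaled to genes without shared exon bases the median of the members there was -1.15 in place of -1.86. Without single replicates, 5 to 8 members and 5090 to 6452 genes were above 1 TPM. Genes below 1 TPM numbered 4571, but 7779 against a level of 2 TPM, 13 with a mean count of at least 10, and 2410 to 2928 without single replicates. Ptprc was also not called above 2 TPM (adjusted p = 0.073). Genes that varied between replicates numbered 0 with edgeR, 345 without its filter, of which 2 were members, 1 with DESeq2's size factors, 27 by DESeq2's dispersion outliers, and 0 to 20 without single replicates, the 20 being without replicate 4. In replicate 3 no member was more than 1 lower, and 0 to 1 were without single replicates. With at least 200 shared exon bases 0 members had an opposite feature, so 0 were exceeded by one. Lat, Icos and Cd28 have few counts, which limits what can be detected for them. The cause of these changes was not tested, except that fewer genes or samples enter where a filter or replicate is changed.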

Other observations

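Of the 29 pathway genes that share no exon base with the other strand and had at least 10 counts in each of replicates 1 to 3, the 7 that were not more than 1 lower in replicate 4 were Cd27 (0.81), Vsir (0.61), Dusp2 (0.20), Cd6 (-0.16), Sit1 (-0.34), Prkcq (-0.48) and Slamf6 (-0.89). Of these, 4 are surface receptors: Cd27 is a costimulatory receptor, Vsir an inhibitory one, and Cd6 and Slamf6 bind ligands on other cells. Surface receptors such as Btla, Cd69 and Tnfrsf4 were also among the 22 genes that were more than 1 lower, so this is not particular to the 7. Vsir had 20, 14, 17 and 27 counts, the highest in replicate 4. The GC content of the longest transcripts of these 7 had a median of 53.3% (43.0% to 59.2%), and that of the 22 genes that were more than 1 lower a median of 48.9% (35.8% to 60.1%), so the ranges overlap. Csk, with the highest GC content of the 29 at 60.1%, was among the lowest in replicate 4, at -3.19.

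Within the 7 lists the largest differences in replicate 4 among these 29 genes were those of Cd69 (-5.09), the early activation receptor, with 14, 19, 15 and 0 counts, and Tnfrsf4 (-3.85), the costimulatory receptor OX40, with 22, 22, 17 and 1 counts. Both were named after their values were seen.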
